A study of Mus musculus with 6 samples.

Results

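The 43 genes described here were listed for the peroxisome, an organelle bounded by a single membrane in which fatty acids are shortened and hydrogen peroxide is made and broken down. Being listed does not place every product there alone, and Abcd4 is known mainly from the lysosome. The listed genes were matched to the symbol of each array probe set. All 43 were found, each with 1 probe set, among 19938 genes tested. The genes were sorted by role into 13 peroxins, which build the organelle, 21 oxidation enzymes, 6 membrane transporters and 3 enzymes of ether lipid synthesis. Liver RNA came from C57BL/6 mice, an inbred strain, given free access to a high fat diet (HFD) or a regular diet (RD) for 2 days, and 3 HFD arrays were compared with 3 RD arrays. The letters NI in all 6 sample titles are not explained, so a condition shared by both diets is not known here. The make-up of the diets and the age and sex of the animals were not used here.

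Peroxisomes take in fatty acids that mitochondria handle poorly, among them very long, branched and dicarboxylic chains and the side chains of bile acid precursors. Peroxins import the enzymes from the cytosol, transporters of the ABC family admit the acyl-CoA substrates, and the shortened products leave as carnitine esters or free acids. In rodent liver, ligands of the nuclear receptor PPARalpha are known to enlarge the peroxisome population and to induce many of these enzymes.

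The values are log2 signals as deposited, so a difference of 1 is a doubling. Values of different genes come from different probes and are not compared as levels. Array medians lay between 7.06 and 7.11 over all probe sets. The labelled tissue was checked on markers. Of 10 hepatocyte markers, 9 were measured and none passed the test (limma; 0 of them also at an unadjusted p under 0.05). Their mean log2 signal was 13.99 to 14.01 in HFD livers and 14.03 to 14.04 in RD livers. For 3 of the 9 the HFD arrays lay wholly below the RD arrays, as for 11.7% of all genes, and for 0 wholly above. These means lie near the highest signal in the data, 14.86, and whether the arrays still respond in full there was not tested. Of 12 markers of Kupffer cells, the resident macrophages of the liver, 7 rose, and their mean was 10.38 to 10.88 in HFD livers against 10.01 to 10.08 in RD livers. Of 6 cholangiocyte markers, 5 were measured and 5 rose, with a mean of 7.91 to 7.99 in HFD livers against 7.43 to 7.50 in RD livers. The part of these cells in the differences below was not tested. In whole liver, fewer cells of a type and less RNA per cell cannot be told apart.

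After 2 days of HFD the peroxisomal genes moved in both directions. The bifunctional enzyme gene Ehhadh roughly doubled, and Nudt19, Far1, Slc25a17 and Acaa1b also rose. Nudt7, Hao1, Abcd3, Pxmp2, Acox3 and Pex16 fell. In all, 5 members were higher and 6 lower in HFD livers by limma's test with Benjamini-Hochberg adjustment over all genes, at an adjusted p under 0.05. That is 25.6% of the members, where 5.35% of all genes were called. The members were chosen with earlier results of these data known, so the shares are not a neutral comparison. Of listed peroxisomal genes outside the members, 0 of 7 other peroxins and division factors and 1 of 24 other enzymes and transporters passed. By direction, the members' shares were 11.6% higher and 14.0% lower, against 3.11% higher and 2.24% lower among all genes. At an unadjusted p under 0.05, 22 members (51.2%) passed, against 19.7% of all genes.

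Of the 43 members, 41 lie among the brighter 9969 genes. When the fit was confined to the brighter part of the genes, 13 of those 41 (31.7%) were called, against 14.9% of those genes. For 26 members (60.5%) the HFD arrays lay wholly to one side of the RD arrays, against 25.7% of all genes. Of these, 9 lay higher in HFD (20.9%, against 14.0% of all genes) and 17 lower (39.5%, against 11.7%). Members called higher numbered 4 when replicate 3 of either diet was left out and 2 when any other array was. Members called lower numbered 3 without HFD replicate 1 or 2, 5 without HFD replicate 3, 4 without the first RD array, and 2 without either other RD array. Ehhadh, Nudt19, Hao1 and Abcd3 are the 4 members that passed in all 6 fits with an array omitted. When every row of the table was tested, Ehhadh, Nudt19 and Abcd3 still passed and Hao1 did not (limma adjusted p = 0.055). Without moderation of the variances, Abcd3 alone passed (adjusted p = 0.020), beside 0.065 for Ehhadh and 0.063 for Nudt19.

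The DNA before the start of the 4 members whose calls held without any single array is shown because it lets the rises and falls be set beside known response elements. RefSeq promoter windows of the mouse assembly GRCm38.p6, 300 bases long with 250 before the start, were found for 34 of the 43 members. Response elements of 3 kinds, chosen with the diet results known, were sought on both strands. The PPARalpha element, a direct repeat of the letters AGGTCA with 1 free base between the copies and up to 2 mismatches, was found in 1 of the 34 members (2.94%), Acox2, against 4.40% of 27025 genes. The core of the NRF2 antioxidant element, TGACNNNGC, was found in 7 members (20.6%, against 14.0% of genes), and the sterol element TCACNCCAC in 1 (2.94%, against 1.44%). Of the members that rose, 2 of 5 held the antioxidant core and of those that fell 1 of 5 with a window did. A match describes letters only, and binding was not measured. Elements outside these 300 bases were not sought, so a window without a match does not show that a gene lacks the element.

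Each sequence is the strand of the gene, with motif matches in capitals. In Ehhadh, chr16:21787835-21788084 on the minus strand, an antioxidant core and a sterol element on the opposite strand overlap. In Nudt19, chr7:35555929-35556178 on the minus strand, the antioxidant core occurs as 2 neighbouring copies. In Hao1, chr2:134554353-134554602 on the minus strand, it lies on the opposite strand at the far end. Abcd3, chr3:121815303-121815552 on the minus strand, is the first of 2 windows of that gene and holds no match.
Ehhadh: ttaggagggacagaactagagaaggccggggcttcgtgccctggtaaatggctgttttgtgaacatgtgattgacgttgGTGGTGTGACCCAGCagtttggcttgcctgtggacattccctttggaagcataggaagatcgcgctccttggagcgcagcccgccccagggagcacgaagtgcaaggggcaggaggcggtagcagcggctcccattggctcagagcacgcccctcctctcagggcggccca
Nudt19: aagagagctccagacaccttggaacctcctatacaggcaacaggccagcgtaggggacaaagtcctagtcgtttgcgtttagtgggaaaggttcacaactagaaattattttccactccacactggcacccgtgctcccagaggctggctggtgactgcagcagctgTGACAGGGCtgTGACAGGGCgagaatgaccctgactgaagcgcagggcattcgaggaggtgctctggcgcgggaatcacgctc
Hao1: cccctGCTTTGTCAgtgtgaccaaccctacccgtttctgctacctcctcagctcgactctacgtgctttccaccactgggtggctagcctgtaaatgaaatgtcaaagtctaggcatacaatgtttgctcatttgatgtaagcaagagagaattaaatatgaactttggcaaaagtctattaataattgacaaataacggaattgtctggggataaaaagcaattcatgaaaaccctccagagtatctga
Abcd3: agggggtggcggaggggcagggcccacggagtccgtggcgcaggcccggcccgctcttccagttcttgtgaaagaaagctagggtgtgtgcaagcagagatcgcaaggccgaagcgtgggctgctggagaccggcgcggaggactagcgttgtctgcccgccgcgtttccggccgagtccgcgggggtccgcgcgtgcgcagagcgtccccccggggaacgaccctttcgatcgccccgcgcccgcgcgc

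**Figure D1:**
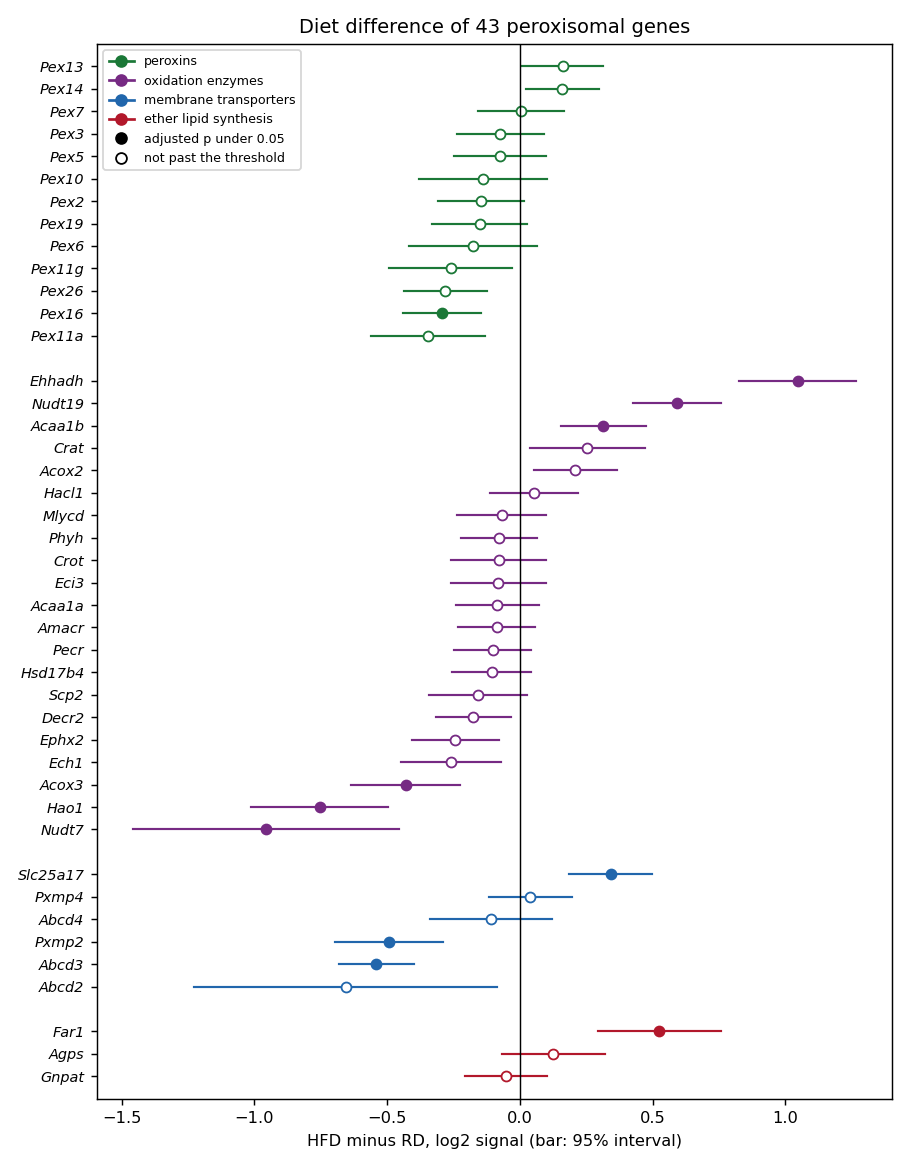
HFD minus RD difference in log2 signal for each of the 43 genes, grouped by role (horizontal axis; bars are 95% intervals, filled points have an adjusted p under 0.05). Ehhadh at 1.05 is the rightmost point and Nudt7 at -0.96 the leftmost, while 10 of the 13 peroxins lie left of 0.

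By class, the median difference was -0.15 for the peroxins, -0.08 for the oxidation enzymes, -0.30 for the transporters and 0.13 for ether lipid synthesis, beside -0.0029 for all genes. The quartiles of all genes were -0.09 and 0.09, and 10133 of the 19938 had negative differences. The peroxins spanned -0.35 to 0.16 and 1 of 13 passed the test. The oxidation enzymes spanned -0.96 to 1.05, with 3 higher and 3 lower of 21. Among the 6 transporters 1 rose and 2 fell, and among the 3 ether lipid enzymes 1 rose. Of all genes, 3.11% were called higher and 2.24% lower. The 1 call among 13 peroxins is near the 5.35% of all genes called in either direction. The peroxin median was -0.19 with the first RD array omitted and -0.10 with the second omitted. For the transporters the median was -0.35 and -0.21 in those fits. The ether lipid median rests on 3 genes and was 0.05 without HFD replicate 1 and 0.20 without HFD replicate 3.

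**Figure D2:**
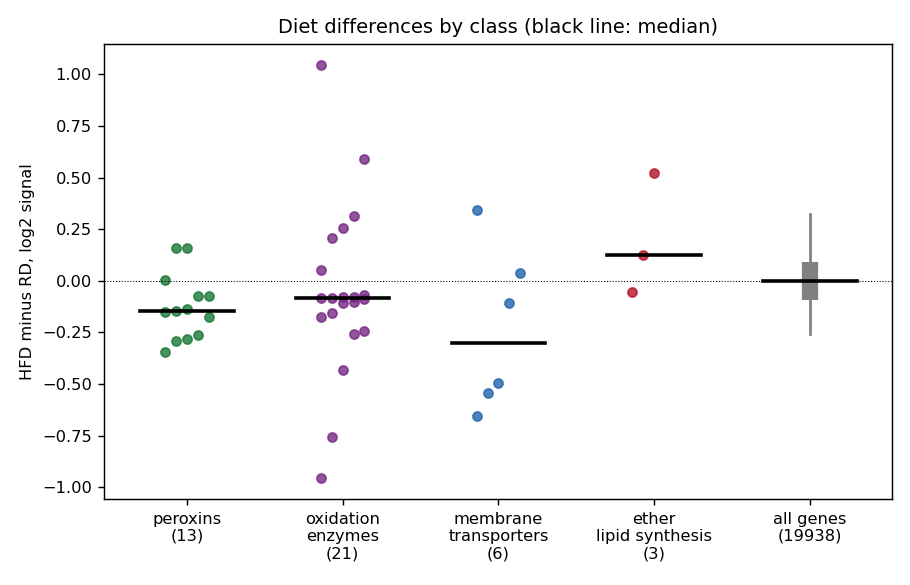
HFD minus RD log2 differences of the members by class (points; number of genes below each class), with the class median as a black line, and all 19938 genes at right (grey box between the quartiles of -0.09 and 0.09, thin line from the 5th percentile at -0.26 to the 95th at 0.32). The oxidation enzymes spread from -0.96 to 1.05, and the peroxins stay between -0.35 and 0.16.

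The peroxins that pull membrane proteins into the organelle and those that recycle the import receptor all had negative differences. So did 10133 of the 19938 genes tested, and Pex16 alone of these peroxins passed. Pex16 (probe set 10474028), a membrane peroxin that takes part in forming the peroxisome membrane, read 11.62, 11.62 and 11.70 in HFD livers, against 11.88, 11.98 and 11.96 in RD livers. The diets did not overlap, and Pex16 fell by 0.29 ± 0.06 on the log2 scale (SE; limma adjusted p = 0.039). The gene no longer passed when any single array was omitted (adjusted p up to 0.124), or when arrays were centred on their medians (adjusted p = 0.053). Its partners in membrane protein insertion, the docking factor Pex3 (-0.07) and the chaperone Pex19 (-0.15), did not pass.

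Pex26, the anchor that holds the receptor export machinery on the membrane, read 8.25, 8.36 and 8.24 in HFD livers, against 8.62, 8.52 and 8.55 in RD livers. All 3 HFD arrays were below all 3 RD arrays, but at -0.28 ± 0.07 (SE) it narrowly missed the threshold (limma adjusted p = 0.053). The export ATPase Pex6 (-0.18) and the ring finger ligases Pex2 (-0.15) and Pex10 (-0.14), which tag the receptor for export, did not pass either. All 4 genes of this step had negative differences, as did 10133 of all 19938 genes tested.

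The division factors Pex11a and Pex11g had negative differences and did not pass. Pex11a, which is known in rodents as a gene induced by peroxisome proliferators, read 11.96, 11.73 and 12.01 in HFD livers, against 12.15, 12.24 and 12.35 in RD livers. The diets did not overlap, with a difference of -0.35 ± 0.09 (SE; limma adjusted p = 0.076). Pex11g differed by -0.26 ± 0.10 (SE; limma adjusted p = 0.199).

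None of the 4 import factors passed. Pex13 and Pex14, which form the docking site for cargo-loaded receptors, were each 0.16 higher in HFD livers with no overlap between the diets, and neither passed (limma adjusted p = 0.223 and 0.189). The receptors that bind cargo, Pex5 (-0.07) and Pex7 (0.0029), overlapped between the diets. The 95% interval of Pex7 ran from -0.16 to 0.16, so the data bound its change in either direction to that size, and its sign turned under quantile normalization (-0.020).

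The core of peroxisomal beta-oxidation held the largest rise among the 43 members. Ehhadh (probe set 10438575) encodes the bifunctional enzyme that hydrates and dehydrogenates straight and dicarboxylic chains. It read 13.20, 13.16 and 13.17 in HFD livers, against 11.95, 12.10 and 12.33 in RD livers. All HFD values lay above all RD values, with an SD of 0.02 in HFD and 0.19 in RD, and the gene rose by 1.05 ± 0.10 (SE; 2.07-fold; limma adjusted p = 9.2e-04). Hsd17b4, the other bifunctional enzyme, which serves branched chains and bile acid precursors, differed by -0.11 ± 0.06 (SE; limma adjusted p = 0.423).

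Among the thiolases at the end of the cycle, Acaa1b alone passed the test. Acaa1b (probe set 10597592) read 11.72, 11.64 and 11.69 in HFD livers, against 11.41, 11.28 and 11.43 in RD livers. It rose by 0.31 ± 0.07 (SE; limma adjusted p = 0.040), and did not pass once any single array was omitted (adjusted p up to 0.124). Acaa1a, its close paralog, overlapped between the diets at -0.08 ± 0.07 (SE), and probes of such near copies can share signal. Scp2, whose longer product is the thiolase for branched chains, differed by -0.16 without passing.

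Of the oxidases that open the cycle, Acox3 passed the test and Acox2 did not. Acox3 (probe set 10521391), the oxidase of branched fatty acids, read 9.46, 9.34 and 9.25 in HFD livers, against 9.63, 9.86 and 9.85 in RD livers. It fell by 0.43 ± 0.09 on the log2 scale (SE; limma adjusted p = 0.032), and with single arrays omitted it passed only when the omitted one was the first of either diet (adjusted p otherwise up to 0.112). Acox2, the oxidase of bile acid precursors, was higher in all 3 HFD arrays than in any RD array at 0.21 ± 0.07 (SE) and did not pass (limma adjusted p = 0.134). Amacr, the racemase that readies branched chains for these enzymes, differed by -0.09.

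None of the enzymes for double bonds, alpha-oxidation or carnitine transfer passed the test. The 4 enzymes that handle double bonds all had negative differences: Ech1 (-0.26), Decr2 (-0.17), Pecr (-0.10) and Eci3 (-0.08). A negative sign was shared by 10133 of the 19938 genes tested. Eci3 was dim, at 5.43 to 5.45 in HFD livers and 5.43 to 5.67 in RD livers, and whether it lay above background is unknown. In alpha-oxidation, which removes 1 carbon from methyl-branched chains, Phyh differed by -0.08 and Hacl1 by 0.05. Of the carnitine acyltransferases, Crat was 0.25 ± 0.10 higher (SE; limma adjusted p = 0.184, or 0.048 without RD replicate 3) and Crot differed by -0.08. The malonyl-CoA decarboxylase Mlycd (-0.07) and the epoxide hydrolase Ephx2 (-0.24) did not pass.

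Nudt7 and Nudt19, hydrolases that break down coenzyme A and acyl-CoA in the peroxisome, moved in opposite directions. Nudt19 (probe set 10562480) read 10.89, 10.73 and 10.88 in HFD livers, against 10.20, 10.31 and 10.21 in RD livers. It rose by 0.59 ± 0.07 (SE; 1.51-fold; limma adjusted p = 0.0039). Nudt7 (probe set 10575685) read 12.28, 12.61 and 11.59 in HFD livers, against 13.19, 13.05 and 13.11 in RD livers. The HFD arrays spread widely, with an SD of 0.52 against 0.07 in RD, and HFD replicate 3 was lowest. Nudt7 fell by 0.96 ± 0.22 on the log2 scale (SE; limma adjusted p = 0.044), by 0.67 without HFD replicate 3 and by 1.18 without HFD replicate 2. It passed in those 2 fits and in no other with an array omitted (adjusted p up to 0.143), and missed with array weights (0.053) and with an intensity trend and robust prior (0.133).

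Hao1 (probe set 10488010), the glycolate oxidase that makes glyoxylate and hydrogen peroxide, read 11.07, 11.32 and 10.91 in HFD livers, against 11.99, 11.75 and 11.82 in RD livers. It fell by 0.75 ± 0.11 on the log2 scale (SE; 1.69-fold; limma adjusted p = 0.0093), with no overlap. Agxt, the aminotransferase that converts glyoxylate to glycine, fell alongside it by 0.78 ± 0.11 (SE; limma adjusted p = 0.0067), and like Hao1 it passed in all 6 fits with an array omitted.

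**Figure D3:**
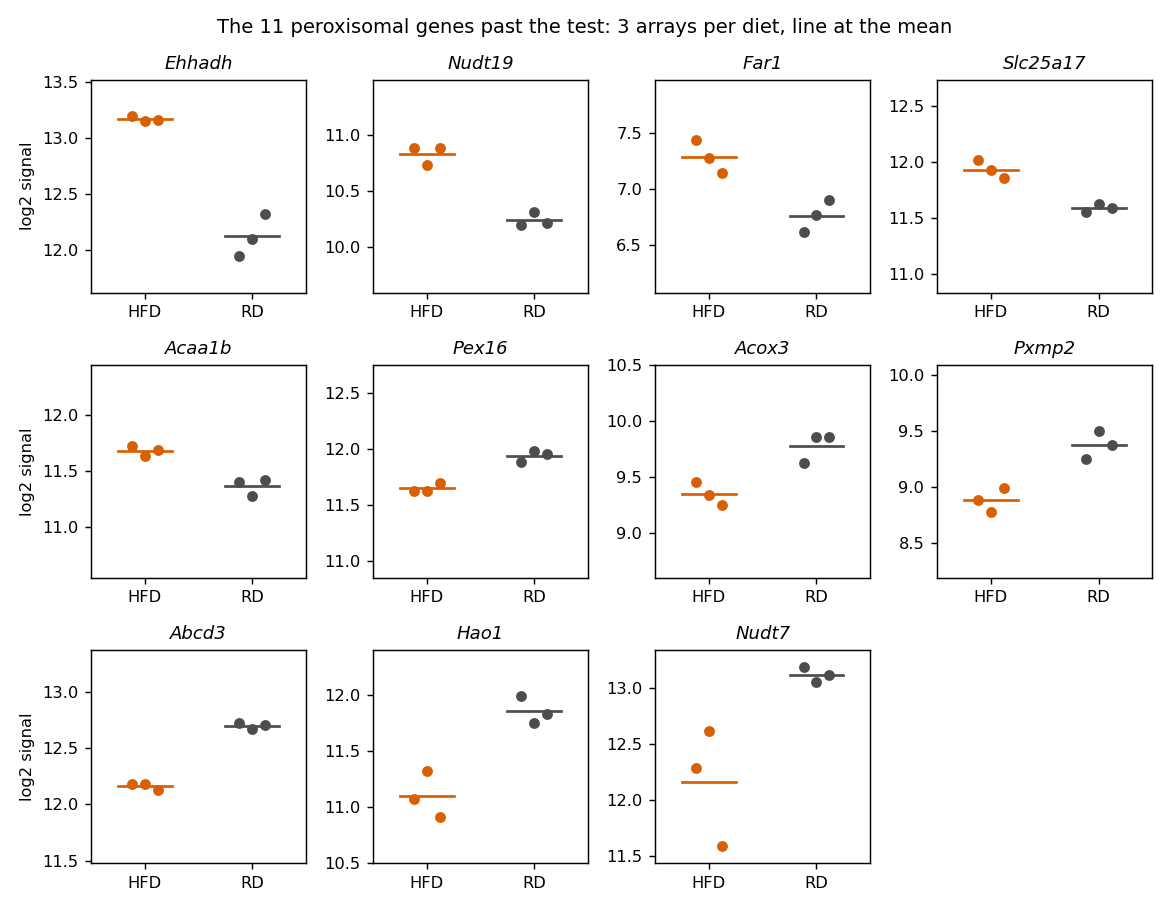
Log2 signal of the 11 members that passed the test, 3 HFD arrays at left and 3 RD arrays at right in each panel, with a line at the mean and the same span on every vertical axis. The diets overlap in none of the 11 panels, and the HFD arrays of Nudt7 spread from 11.59 to 12.61.

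Among the transporters, Abcd3 showed the smallest p. It encodes PMP70, which admits branched acyl-CoA, dicarboxylic acyl-CoA and bile acid precursors. Abcd3 (probe set 10501832) read 12.18, 12.18 and 12.13 in HFD livers, against 12.73, 12.67 and 12.71 in RD livers. It fell by 0.54 ± 0.06 on the log2 scale (SE; 1.46-fold; limma adjusted p = 0.0027).

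Its relative Abcd2, which carries very long and polyunsaturated chains and is given by array because of its spread, read 9.35, 8.68 and 9.87 in HFD livers, against 9.86, 9.98 and 10.03 in RD livers. HFD replicate 3 overlapped the RD values, and the difference of -0.66 ± 0.25 (SE) did not pass (limma adjusted p = 0.189). It was -0.94 without HFD replicate 3, where it passed (adjusted p = 0.044), and -0.35 without HFD replicate 2. Abcd4, which is known mainly as a lysosomal cobalamin transporter, differed by -0.11 and by 0.0069, the other way, with the second RD array omitted.

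The remaining membrane proteins split. Slc25a17 (probe set 10430711), the carrier of coenzyme A and other cofactors, read 12.02, 11.93 and 11.86 in HFD livers, against 11.56, 11.63 and 11.59 in RD livers, and rose by 0.34 ± 0.07 (SE; limma adjusted p = 0.028). Pxmp2 (probe set 10532339), a channel of the peroxisomal membrane, read 8.88, 8.78 and 8.99 in HFD livers, against 9.25, 9.50 and 9.38 in RD livers, and fell by 0.49 ± 0.09 on the log2 scale (SE; limma adjusted p = 0.020). Pxmp4 differed by 0.04 ± 0.07 (SE). With single arrays omitted, Slc25a17 passed only when that was HFD replicate 3 (adjusted p otherwise up to 0.105). Pxmp2 passed when it was HFD replicate 3 or the first RD array (adjusted p otherwise up to 0.0704).

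Ether lipid synthesis begins in the peroxisome. Far1 (probe set 10556491), the reductase that supplies its fatty alcohols and limits the pathway, read 7.43, 7.28 and 7.14 in HFD livers, against 6.61, 6.76 and 6.90 in RD livers. It rose by 0.52 ± 0.10 (SE; limma adjusted p = 0.026), and with single arrays omitted it passed only when that was replicate 3 of either diet (adjusted p otherwise up to 0.0905). Far1 was dim, below the median over genes in each array (7.51 to 7.56), and whether it lay above background is unknown. Agps, which exchanges the acyl chain for the alcohol, read 8.09, 7.95 and 7.79 in HFD livers, against 7.80, 7.84 and 7.82 in RD livers, with overlap between the diets. Gnpat, the acyltransferase before it, read 10.41, 10.41 and 10.40 in HFD livers, against 10.39, 10.55 and 10.43 in RD livers. Neither passed, at 0.13 ± 0.08 for Agps and -0.05 ± 0.07 for Gnpat (SE).

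Of the 32 members that did not pass, 30 had a 95% interval within 0.5 of 0 on the log2 scale, and 15 had one within 0.3. The intervals of Abcd2 and Pex11a were the ones that reached beyond 0.5.

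For 7 pairs of members with related roles, the first gene was taken relative to the second within each array, and the HFD mean of that value was compared with the RD mean. An exact two-sided permutation test over the 6 arrays can give no p below 0.1 here, so no pair could pass. The value for Ehhadh against Hsd17b4 differed by 1.15 with no overlap between the diets (exact p = 0.1; adjusted p = 0.14 over the 7 pairs). The values were -1.55 for Nudt7 against Nudt19, 0.64 for Acox2 against Acox3, -0.40 for Acaa1a against Acaa1b and -0.34 for Crot against Crat, each with no overlap and the same exact p. Of the pairs without overlap, all but Crot against Crat hold a gene called above. Their values partly restate those calls and are not separate evidence. Of single genes, 25.7% did not overlap, and the share among other pairs of genes was not computed. Phyh against Hacl1 (-0.13, exact p = 0.2) and Abcd2 against Abcd3 (-0.12, exact p = 0.8) overlapped. The value of Abcd2 against Abcd3 was 0.20 without HFD replicate 2.

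**Figure D4:**
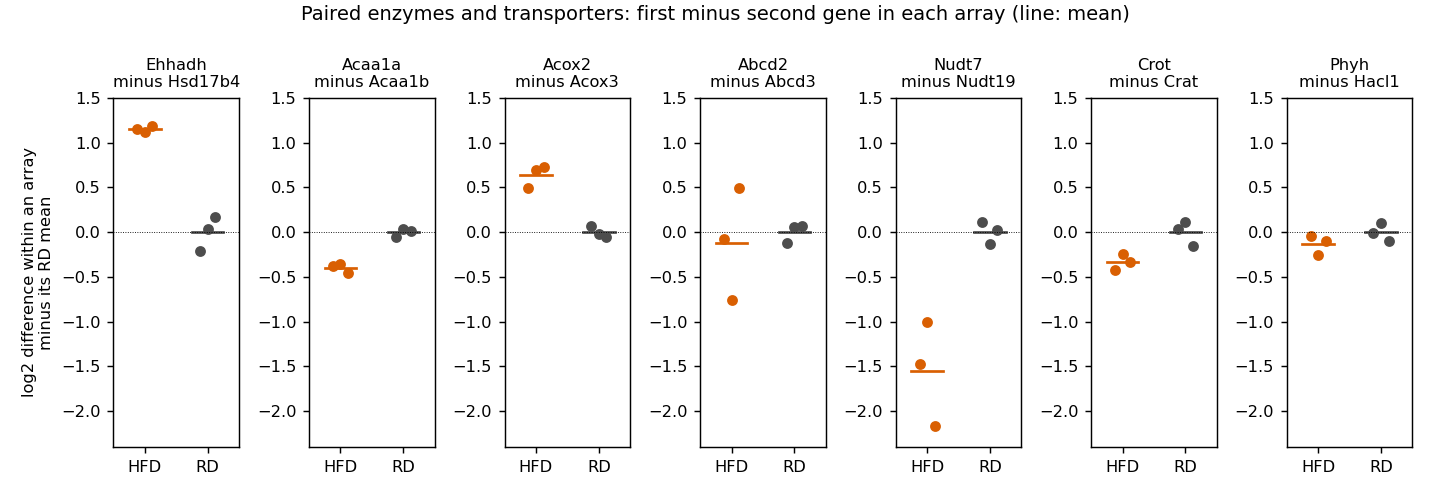
Within-array log2 difference between the genes of 7 pairs, set to an RD mean of 0 (points are arrays, HFD left and RD right; lines are means). The 3 HFD arrays lie at 1.12 to 1.19 for Ehhadh minus Hsd17b4 while those of Nudt7 minus Nudt19 reach down to -2.17.

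Further genes of the pathway were read against the 5.35% of all genes called in either direction. Of 10 other peroxins and division factors, 7 were measured and none passed in limma. At an unadjusted p under 0.05, 1 was higher and 1 lower. Their median was 0.011, with 4 positive and 3 negative differences. The smallest p values were those of the ubiquitin ligase Trim37 (0.31 ± 0.10), the membrane tether Acbd5 (-0.32 ± 0.11) and the fission receptor Mff (0.10 ± 0.07). Of 30 other peroxisomal enzymes and transporters, 24 were measured and Agxt alone passed, a share near that background, with 7 positive and 17 negative differences and a median of -0.08. The sarcosine oxidase Pipox (-0.32 ± 0.08; limma adjusted p = 0.072) and the bile acid conjugating enzyme Baat (-0.24 ± 0.07; limma adjusted p = 0.089) came next. Listed genes with no probe set of their own symbol alone are not analysed here.

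Genes outside the peroxisome that PPARalpha is known to regulate gave calls in both directions. Of 30 listed, 27 were measured, and 1 rose and 2 fell, with a median of -0.09. Of all genes, 3.11% were called higher and 2.24% lower. At an unadjusted p under 0.05 in limma, 3 of the 27 were higher and 9 lower. Among all 19938 genes those counts were 2201 and 1725. Pdk4, a kinase that limits glucose oxidation, rose by 1.01 ± 0.19 (SE; limma adjusted p = 0.021), and missed the threshold when any RD array was omitted (adjusted p up to 0.084). Cpt1a, the entry enzyme of mitochondrial oxidation, fell by 0.33 ± 0.06 on the log2 scale (SE; limma adjusted p = 0.022), and Ppara itself fell by 0.30 ± 0.07 (SE; limma adjusted p = 0.039). Neither passed once any single array was omitted (adjusted p up to 0.082 for Cpt1a and 0.115 for Ppara).

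The steps that shorten and conjugate the bile acid side chain involve 8 genes, 5 of them members. Abcd3 and Slc27a5, the bile acid CoA ligase, fell, at -0.54 and -0.37 ± 0.07 (SE; limma adjusted p = 0.029 for Slc27a5). Of all genes, 2.24% were called lower. Acox2 was the single gene of the 8 with a positive difference, and the median was -0.18. With single arrays omitted, Slc27a5 passed only when that was the third RD array (adjusted p otherwise up to 0.106).

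The mean of the 13 member peroxins was lower in every HFD array than in any RD array. Among these peroxins, Pex13 and Pex14 were higher in every HFD array than in any RD array. The mean of the 7 other peroxins and division factors overlapped, at 9.98, 9.92 and 9.92 in HFD and 9.92, 9.90 and 9.98 in RD. Relative to the RD mean, the member peroxins lay at -0.13, -0.14 and -0.11 in the HFD arrays and between -0.04 and 0.05 in the RD arrays. The oxidation enzymes lay at -0.05, -0.02 and -0.11 in HFD and between -0.02 and 0.05 in RD, so the diets overlapped. The transporters lay at -0.23, -0.36 and -0.13 in HFD and between -0.07 and 0.06 in RD. Among them Abcd2 spread most over the HFD arrays, at -0.61, -1.28 and -0.09. Slc25a17 lay the other way at 0.42, 0.33 and 0.27, and Pxmp4 at 0.0013, 0.03 and 0.09. The ether lipid enzymes lay at 0.30, 0.20 and 0.10 in HFD and between -0.08 and 0.04 in RD. That mean rests mostly on Far1, at 0.68, 0.52 and 0.38 in HFD. Agps lay at 0.27, 0.13 and -0.03 there, and Gnpat at -0.05, -0.05 and -0.06. Beside them, the Kupffer cell markers lay at 0.83, 0.33 and 0.54 in HFD and between -0.04 and 0.03 in RD, and the hepatocyte markers at -0.02, -0.04 and -0.05 in HFD and between -0.0029 and 0.0044 in RD. HFD replicate 1 was highest for the Kupffer cell markers and for the ether lipid enzymes. Among the HFD arrays, replicate 2 was lowest for the Kupffer cell markers and replicate 3 for the ether lipid enzymes. HFD replicate 2 was lowest for the peroxins and the transporters. A relation between marker lists and classes was not tested.

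**Figure D5:**
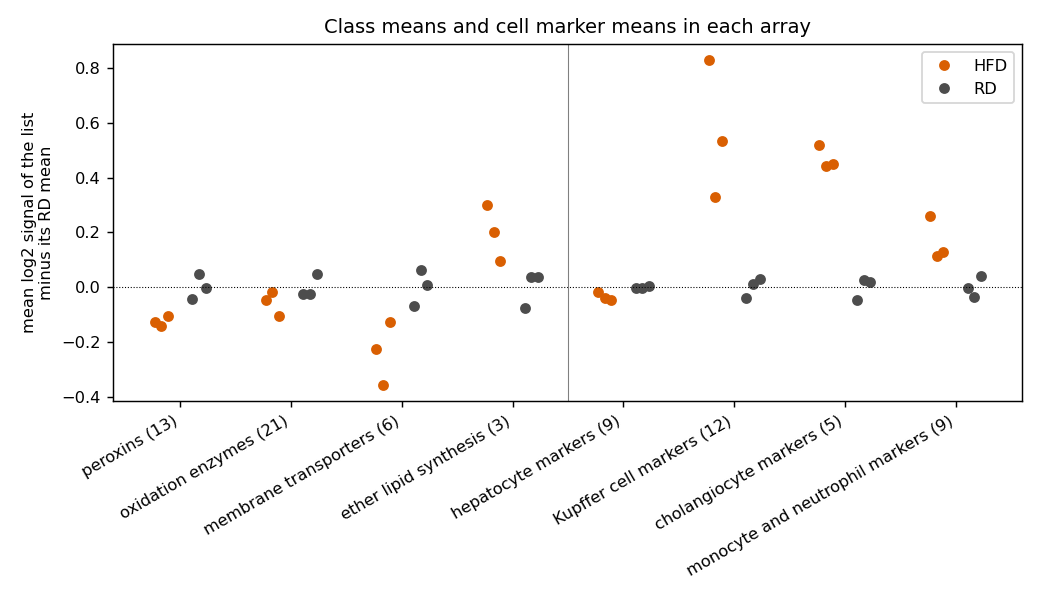
Mean log2 signal of each class (left of the grey line) and of 4 cell marker lists (right of it) in each array, minus the RD mean of that list (HFD points left, RD points right; number of genes in brackets). Kupffer cell markers reach 0.83 in HFD replicate 1, while the peroxins stay between -0.14 and -0.11 in the HFD arrays.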

How the data were processed

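The members and gene lists were chosen with earlier results of these data known. Total RNA of 6 livers was labelled with a GeneChip kit, 1 array per sample, per the labels. The labels also name the dye Cy5; with 1 channel labelled and 1 value per probe set, the values were taken as single-channel signals, which the labels do not state. The authors deposited 1 log2 value per probe set and array (2.28 to 14.86); base 2 is inferred from the range. How probes were summarised and arrays normalized was not given in the sources used here. Values were used as deposited, and having 6 arrays limits precision. Of 35512 probe sets, 21789 carried 1 symbol in the platform annotation, 1621 several and 12102 none; 21698 matched RefSeq identifiers, which changed 0 symbols. The brightest probe set per gene gave 19938 genes, with no filter on dim signals. Diet alone was fitted in limma 3.58.1 (R 4.3.3; lmFit, eBayes), with two-sided p-values adjusted by Benjamini-Hochberg over those genes; differences are HFD minus RD, with the moderated SE. The steps were tested on simulated data. Members past the threshold and the 3 of smallest p per class have their array values printed, and up to 3 genes of smallest p are named from each other list of pathway genes; hepatocyte, Kupffer and cholangiocyte markers are given as counts. Replicates are called biological by the series, with no animal numbers. Alternatives covered normalization, centring, brightness, probe sets, every row, variance priors, weighted arrays, a replicate block, a 1.5-fold minimum and each array left out.

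Of the other marker lists, 2 of 9 measured monocyte and neutrophil markers rose, and none passed among 8 endothelial, 8 stellate, 7 lymphocyte, 5 adipocyte, 5 pancreatic and 6 muscle markers (limma; 2 endothelial markers were higher and 1 adipocyte and 1 pancreatic marker lower at an unadjusted p under 0.05).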

Additional observations from a re-analysis of the deposited data

How the results depend on the processing

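Of 686 refits of single members, 600 kept their direction and their side of the threshold, 68 lost and 12 gained a call, and 6 changed sign. The sign changes were those of Pex7, at -0.020 under quantile normalization, -0.0085 with array weights and -0.037 to 0.045 with 1 array left out, and of Abcd4, at -0.17 to 0.0069 with 1 array left out. With 1 array left out, all genes called numbered 197 to 371 higher and 178 to 273 lower, members called 2 to 4 higher and 2 to 5 lower, and the peroxin median was -0.19 to -0.10; fewer arrays give fewer calls by construction. Testing every row gave 168 higher and 173 lower rows, with 2 members higher and 1 lower. Without moderation of variances there were 41 higher and 58 lower genes, 1 member lower and 0 higher (8 higher at an unadjusted p under 0.05). A 1.5-fold minimum left 208 higher and 151 lower genes, and 2 members each way. An intensity trend with a robust prior called 10 members lower. Among the brighter genes the ether lipid median was 0.037, without the dim Far1. Replicate numbers are shared by the diets, but deviations of arrays with the same number correlated at -0.11, 7.2e-05 and 0.12, and 1 of 3 HFD arrays correlated best with its own number, so they were not treated as pairs. With the replicate block, 318 genes were higher and 245 lower, with 2 members each way. Detection calls were not used here, so the background under dim genes is unknown.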
